A study of Mus musculus with 17 samples.

Results

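The genes described here are 10 genes of alveolar fibroblasts, the interstitial fibroblasts of the lung's air sacs: Ogn, Fibin, Cdo1, Tcf21, Npnt, Inmt, Fgf10, Limch1, Pdgfra and Mfap4. All 10 were found among the 14939 transcript clusters with 1 gene symbol, of 23238 transcript clusters in all; a transcript cluster is the set of array probes that covers 1 gene, and where a gene had several, the cluster with the highest mean over the arrays was used. The genes were chosen by cell type and by the falls of Ogn, Fibin and Cdo1 in the lesions of these same arrays. For every comparison with a lesion, their values are therefore a description with no test.

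RNA was measured on 17 Affymetrix mouse exon arrays in lung tissue cut out by laser from stained frozen sections. The 4 groups were adenocarcinoma of SPC/c-Raf transgenic mice aged 11.5 to 14 months (n = 4), dysplasia of SPC/c-Raf transgenic mice aged 5 to 6 months (n = 4), microscopically unaltered lung of the same SPC/c-Raf mice (n = 4) and lung of non-transgenic mice aged 7 to 11 months (n = 5). In these mice the surfactant protein C promoter drives c-Raf, a kinase of the growth factor pathway, in alveolar epithelium, so the fibroblasts described here are not the cells in which the promoter is known to be active. Dysplasia and unaltered lung share 4 animal labels, and 3 arrays carry the names of 2 animals.

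Alveolar fibroblasts lie between the epithelium and the capillaries of the air sacs. They lay down matrix, receive platelet-derived growth factor (PDGF) from neighbouring cells and send signals such as FGF10 to the epithelium. TCF21 is a transcription factor of lung mesenchyme. Laser-cut lesions hold all the cells of a region, and these values cannot tell fewer cells of a type from less RNA per cell.

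The values are log2 RMA values, so a difference of 1 is a 2-fold difference. Array medians ran from 6.67 to 6.85 and lower quartiles from 4.97 to 5.11. Precision is limited by having 4 or 5 arrays in a group. Surfactant gene Sftpc, the defining gene of alveolar type II cells, stood near the top of the scale, with a mean ± SD of 14.23 ± 0.02 on the 4 adenocarcinoma arrays and 14.18 ± 0.04 on the 5 non-transgenic arrays. Levels of 2 Y-linked genes, Kdm5d and Eif2s3y, contradicted the labelled sex on 4 arrays: adenocarcinoma replicate 2 and non-transgenic replicates 2, 3 and 5. Their mean was low only on non-transgenic replicates 4 and 5, at 3.78 and 3.67 against 7.92 to 8.60 on the other arrays. All dysplasia and unaltered arrays are labelled male. Within the non-transgenic group, replicates 4 and 5 differed from replicates 1 to 3 in having a higher mean over 9 smooth muscle genes (8.25 and 8.28, against 7.26 to 7.57) and over 7 ciliated and club cell genes (9.16 and 9.46, against 7.26 to 7.52). Replicates 4 and 5 are also the arrays low in Y-linked genes, and the part of sex in this difference was not tested. Each comparison was also made without non-transgenic replicates 4 and 5 and with the sex of the Y-linked genes. Both settings set the same arrays apart, so they are not separate checks. Some of the calls that changed are given beside their results.

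All 10 genes were lowest in adenocarcinoma, and on every adenocarcinoma array each gene lay below its value on every array of the other groups. The median log2 difference over the 10 genes was -3.44 for adenocarcinoma minus non-transgenic lung, from -1.73 for Pdgfra to -5.22 for Ogn, beside a median of 0.01 over all transcript clusters. The model, fitted in limma with terms for group and labelled sex and a random effect of the animal, placed all 10 below an adjusted p of 0.05, against 15.3% of all transcript clusters called lower and 12.1% called higher. Log2 differences, SEs and folds are estimates of this model. They are adjusted for labelled sex and can depart from the differences of the group means. On 15.2% of all transcript clusters every adenocarcinoma array lay below every non-transgenic array. Nothing is read from either count of 10, since the genes were chosen by such falls. Nor is anything read from the counts of the 10 genes in the other comparisons with a lesion, also under the alternatives. All 10 genes lay above the array's median on every non-transgenic array. In adenocarcinoma 7 of the 10 still did, and Ogn, Fibin and Fgf10 lay below the median on all 4 arrays, so not every gene was lost altogether.

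**Figure D1:**
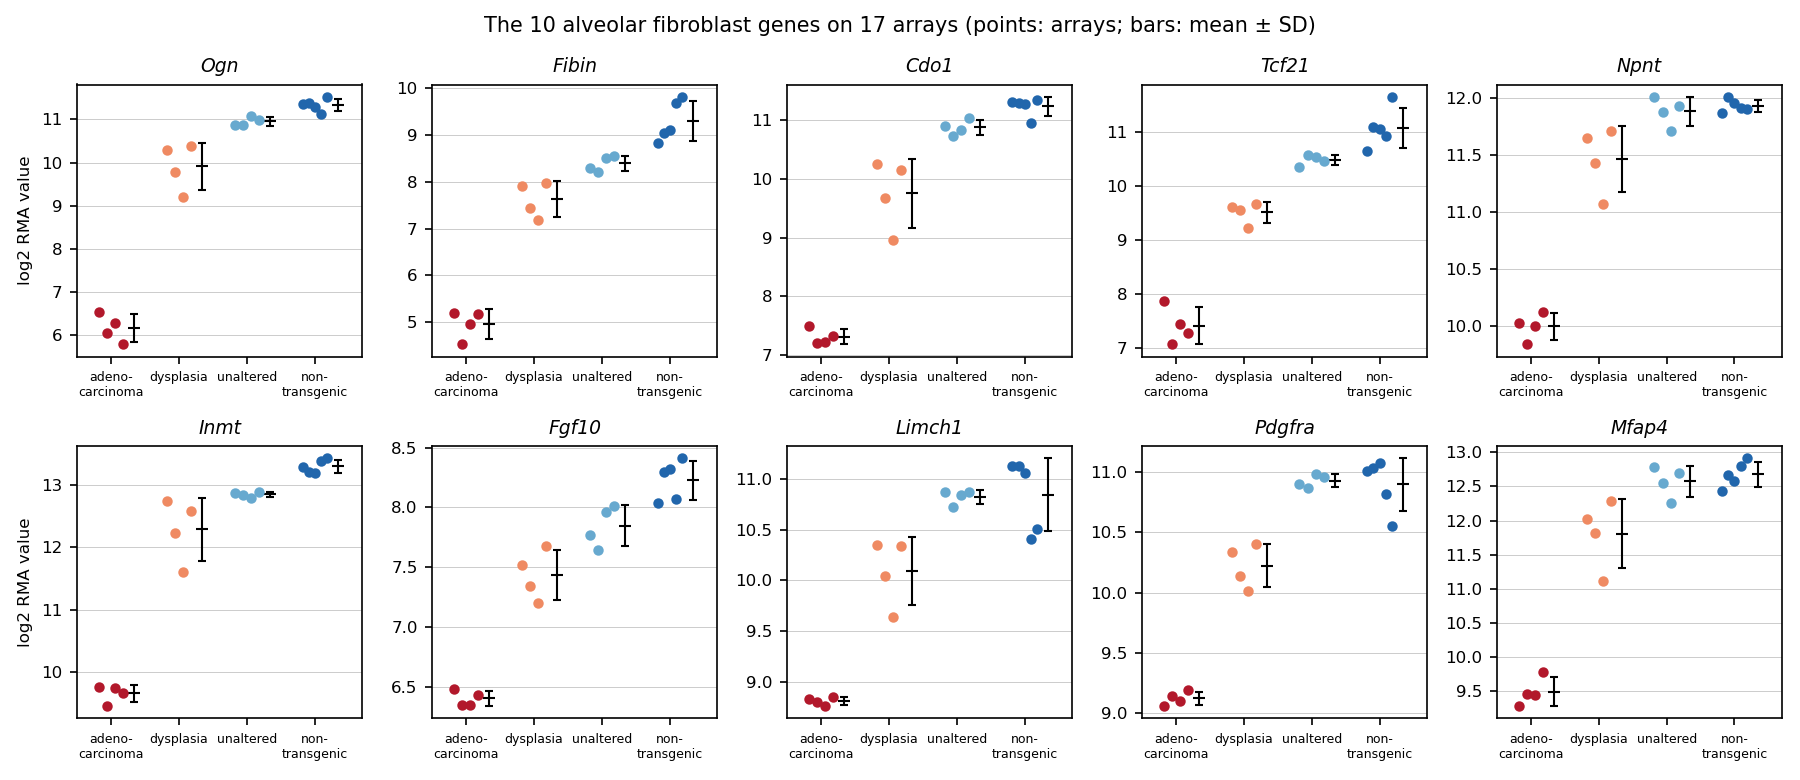
Log2 RMA values (vertical axis, a scale of its own in each panel) of the 10 alveolar fibroblast genes in adenocarcinoma, dysplasia, unaltered transgenic and non-transgenic lung. Each point is 1 array and the bars are the mean ± SD of each group; the 4 adenocarcinoma points lie below all other points in every panel.

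Among the signalling genes, Fgf10 codes for a secreted growth factor that acts on the epithelium through the receptor FGFR2. Fgf10 had log2 values of 6.48, 6.35, 6.35 and 6.43 in adenocarcinoma, 7.52, 7.34, 7.20 and 7.68 in dysplasia, 7.77, 7.64, 7.96 and 8.01 in unaltered transgenic lung and 8.04, 8.30, 8.32, 8.07 and 8.41 in non-transgenic lung. The adenocarcinoma arrays lay close together, and the highest dysplasia array was just above the lowest unaltered array. Fgf10 differed by -1.83 ± 0.12 (SE) between adenocarcinoma and non-transgenic lung, which is 3.57-fold lower. Pdgfra codes for the receptor of PDGF-A. Pdgfra had log2 values of 9.06, 9.14, 9.10 and 9.19 in adenocarcinoma, 10.34, 10.14, 10.01 and 10.40 in dysplasia, 10.90, 10.87, 10.98 and 10.96 in unaltered transgenic lung and 11.01, 11.03, 11.07, 10.82 and 10.55 in non-transgenic lung. Unaltered lung and non-transgenic lung overlapped, while both lesions lay below them. Pdgfra was 3.32-fold lower in adenocarcinoma than in non-transgenic lung, at a log2 difference of -1.73 ± 0.11 (SE), the smallest among the 10 genes.

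Tcf21 codes for a basic helix-loop-helix transcription factor that is needed for lung mesenchyme to develop in the mouse. Tcf21 had log2 values of 7.87, 7.07, 7.45 and 7.29 in adenocarcinoma, 9.61, 9.56, 9.22 and 9.66 in dysplasia, 10.36, 10.57, 10.53 and 10.46 in unaltered transgenic lung and 10.65, 11.09, 11.05, 10.93 and 11.65 in non-transgenic lung. The 4 groups did not overlap, and adenocarcinoma was lowest and non-transgenic lung highest. The log2 difference of Tcf21 was -3.74 ± 0.19 (SE) between adenocarcinoma and non-transgenic lung, or 13.4-fold lower.

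Of the matrix genes, Ogn codes for osteoglycin, a small leucine-rich proteoglycan. Ogn had log2 values of 6.54, 6.05, 6.29 and 5.79 in adenocarcinoma, 10.29, 9.77, 9.21 and 10.38 in dysplasia, 10.87, 10.87, 11.08 and 10.99 in unaltered transgenic lung and 11.36, 11.38, 11.29, 11.12 and 11.52 in non-transgenic lung. Again no group overlapped another. Ogn was 37.4-fold lower in adenocarcinoma than in non-transgenic lung, at a log2 difference of -5.22 ± 0.23 (SE). Its fall was the largest of the 14939 transcript clusters with 1 gene symbol, a rank that its choice for these falls makes no result. Npnt codes for nephronectin, a matrix ligand of the integrin alpha 8 beta 1. Npnt had log2 values of 10.03, 9.84, 10.00 and 10.12 in adenocarcinoma, 11.65, 11.43, 11.07 and 11.71 in dysplasia, 12.01, 11.88, 11.71 and 11.93 in unaltered transgenic lung and 11.87, 12.01, 11.96, 11.91 and 11.90 in non-transgenic lung. To 2 decimals dysplasia reached the lowest unaltered value, and unaltered lung overlapped non-transgenic lung. Npnt was 3.85-fold lower in adenocarcinoma than in non-transgenic lung (log2 difference -1.94 ± 0.12, SE). Mfap4 codes for a microfibril-associated glycoprotein of elastic fibres. Mfap4 had log2 values of 9.29, 9.46, 9.45 and 9.79 in adenocarcinoma, 12.03, 11.82, 11.11 and 12.28 in dysplasia, 12.78, 12.55, 12.26 and 12.70 in unaltered transgenic lung and 12.43, 12.66, 12.58, 12.80 and 12.91 in non-transgenic lung. The highest dysplasia array lay just above the lowest unaltered array, and unaltered and non-transgenic lung overlapped. Mfap4 was 9.09-fold lower in adenocarcinoma than in non-transgenic lung, at -3.18 ± 0.20 (SE).

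Cdo1 and Inmt code for enzymes. CDO1, cysteine dioxygenase, oxidises cysteine, and INMT transfers methyl groups to indoleamines such as tryptamine. Cdo1 had log2 values of 7.49, 7.21, 7.22 and 7.32 in adenocarcinoma, 10.25, 9.68, 8.96 and 10.15 in dysplasia, 10.90, 10.74, 10.83 and 11.04 in unaltered transgenic lung and 11.31, 11.30, 11.27, 10.95 and 11.35 in non-transgenic lung. Inmt had log2 values of 9.77, 9.46, 9.75 and 9.66 in adenocarcinoma, 12.74, 12.22, 11.60 and 12.58 in dysplasia, 12.87, 12.84, 12.79 and 12.88 in unaltered transgenic lung and 13.28, 13.20, 13.18, 13.38 and 13.42 in non-transgenic lung. For both genes the 4 adenocarcinoma arrays lay close together and below the rest, and the dysplasia arrays were spread more widely. The log2 difference between adenocarcinoma and non-transgenic lung was -3.98 ± 0.21 (SE) for Cdo1, which is 15.7-fold lower. It was -3.69 ± 0.18 (SE) for Inmt, which is 12.9-fold lower.

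Fibin codes for a secreted factor known from the growth of the pectoral fin bud in zebrafish, and Limch1 for a protein with LIM and calponin homology domains that binds non-muscle myosin. Fibin had log2 values of 5.19, 4.52, 4.95 and 5.17 in adenocarcinoma, 7.92, 7.44, 7.18 and 7.98 in dysplasia, 8.30, 8.21, 8.52 and 8.55 in unaltered transgenic lung and 8.84, 9.04, 9.12, 9.68 and 9.82 in non-transgenic lung. The adenocarcinoma values of Fibin lay around the lower quartile of the arrays, so the size of its fall, -4.43 ± 0.24 (SE) or 21.5-fold against non-transgenic lung, is less well determined there than the fall of a brighter gene. Limch1 had log2 values of 8.83, 8.80, 8.76 and 8.85 in adenocarcinoma, 10.35, 10.04, 9.64 and 10.34 in dysplasia, 10.87, 10.72, 10.84 and 10.87 in unaltered transgenic lung and 11.13, 11.13, 11.06, 10.41 and 10.51 in non-transgenic lung. Limch1 was 4.08-fold lower in adenocarcinoma than in non-transgenic lung, at -2.03 ± 0.18 (SE). Non-transgenic replicates 4 and 5 lay below replicates 1 to 3 in Limch1, by 0.65 on average, and in Pdgfra, by 0.36, but above them in Fibin, by 0.75, in Mfap4, by 0.30, and in Inmt, by 0.18. The other 5 genes overlapped between these arrays. Replicates 4 and 5 are also the arrays low in Y-linked genes, and the part of sex in these offsets was not tested.

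**Figure D2:**
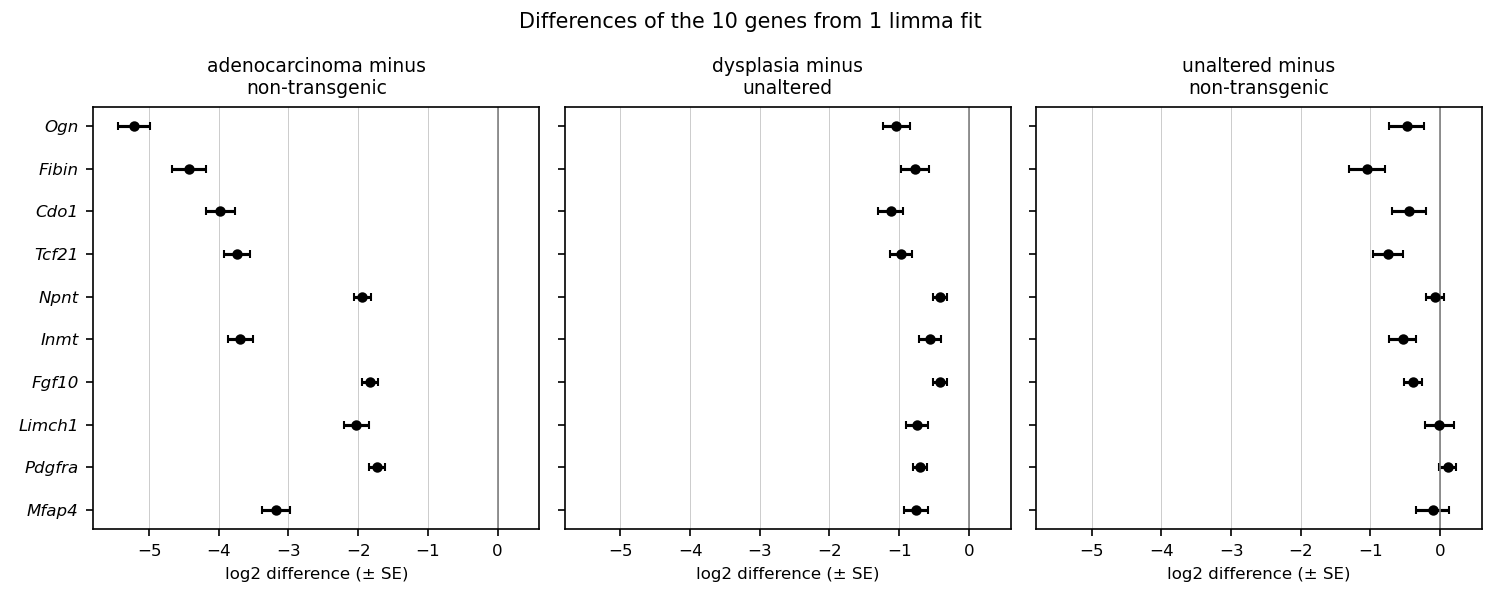
Log2 differences (horizontal axis, points, with SE bars) of the 10 genes for adenocarcinoma minus non-transgenic lung, dysplasia minus unaltered lung and unaltered minus non-transgenic lung, all from 1 limma fit to 17 arrays. The first panel runs from -1.73 to -5.22, the second from -0.41 to -1.12, and the third from 0.11 to -1.05.

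Against unaltered transgenic lung, the 10 genes in adenocarcinoma had a median log2 difference of -3.03, from -1.44 (Fgf10) to -4.74 (Ogn), beside 0.06 over all transcript clusters. All 10 passed, against 9.66% of all transcript clusters called lower and 16.1% called higher. Adenocarcinoma minus dysplasia gave a median of -2.17, from -1.03 (Fgf10) to -3.70 (Ogn), beside 0.01 over all transcript clusters. All 10 passed here too, where 6.65% of all transcript clusters were called lower and 3.79% higher. In both comparisons every adenocarcinoma array lay below every array of the other group for all 10 genes. The same held on 11.3% of all transcript clusters against unaltered lung and 11.8% against dysplasia. Adenocarcinoma animals were the oldest, with no age in common with the other groups. With age as a covariate the median of adenocarcinoma minus dysplasia became -2.54 and 8 of the 10 genes passed. Over all transcript clusters, 147 were then called lower and 5 higher, against 1545 and 880 in the main fit.

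The mean of dysplasia lay between those of adenocarcinoma and unaltered lung for all 10 genes. In dysplasia minus unaltered lung of the same animal labels, the median log2 difference was -0.75, from -0.41 ± 0.10 (SE) for Fgf10 to -1.12 ± 0.18 (SE) for Cdo1, beside 0.06 over all transcript clusters. All 10 passed, against 5.17% of all transcript clusters called lower and 14.4% called higher. For 8 of the 10 genes every dysplasia array lay below every unaltered array, as on 5.62% of all transcript clusters. Fgf10 and Mfap4 overlapped. With the animal as a fixed block in the 4 pairs, the differences were the same and 4 of the 10 genes passed. Over all transcript clusters, 446 were then called lower and 1435 higher, against 1201 and 3357 in the main fit. Over all 33 alternatives the 10 passed together in 25. Without the arrays naming 2 animals 7 passed, where 569 of all transcript clusters were called lower and 1558 higher.

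Every pair had a lower value in dysplasia for every gene. Ogn differed by -0.58, -1.10, -1.87 and -0.61 in pairs 1 to 4, and Cdo1 by -0.65, -1.06, -1.86 and -0.89. For Inmt the pairs differed by -0.13, -0.62, -1.18 and -0.29. Pair 3 had the largest difference for all 10 genes, and dysplasia replicate 3 was the lowest dysplasia array for 10 of the 10. On that array the mean of 12 endothelial genes was also the lowest of the dysplasia arrays, at 10.01 against 10.49 to 10.83, while the mean of 10 alveolar type II genes was 12.79 against 12.68 to 12.76; their part in the result was not tested. Without dysplasia replicate 3, the median of dysplasia minus unaltered lung was -0.60.

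**Figure D3:**
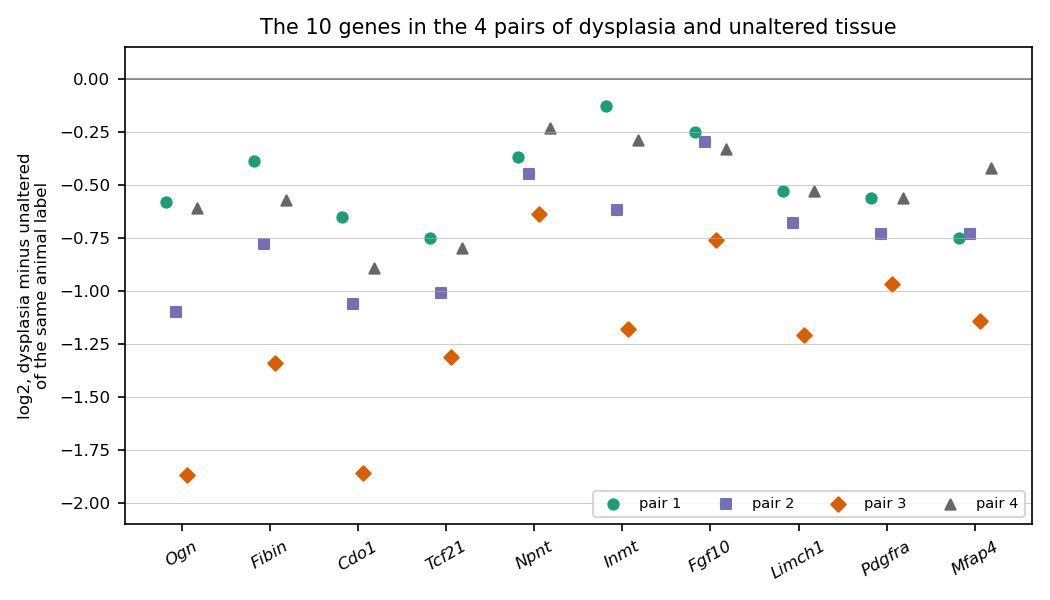
Log2 difference of dysplasia minus unaltered lung (vertical axis) for each of the 10 genes in the 4 pairs that share an animal label; each marker is 1 pair. All points lie below 0, between -0.13 and -1.87, and pair 3 is lowest for every gene.

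Against non-transgenic lung, the 10 genes in dysplasia had a median log2 difference of -0.99, from -0.49 (Npnt) to -1.82 (Fibin), beside -0.01 over all transcript clusters. All 10 passed, against 7.5% of all transcript clusters called lower and 5.56% called higher. For all 10, every dysplasia array lay below every non-transgenic array, as on 10.3% of all transcript clusters. All 10 passed in 20 of 32 alternatives. Of the 10, 6 passed with age as a covariate, 7 without the arrays naming 2 animals, 7 without non-transgenic replicates 1 to 3, 8 among arrays labelled male, and 9 with quantile normalization, with array weights or without non-transgenic replicates 4 and 5. In the same order, 458, 1109, 2083, 1222, 1587, 1634 and 1654 of all transcript clusters were called lower, against 1742 in the main fit. With 1 array left out between 8 (dysplasia 2 or adenocarcinoma 2) and 10 passed. The log2 difference of dysplasia from non-transgenic lung was also taken as a share of that of adenocarcinoma. The share was 35.6% at the median, from 25.1% for Npnt to 45.8% for Tcf21. In unaltered transgenic lung this share was 10.2% at the median, from -6.14% for Pdgfra to 23.8% for Fibin. These comparisons share their non-transgenic arrays. Adenocarcinoma came from other, older animals, and no lesion was followed over time.

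In unaltered transgenic lung against non-transgenic lung 7 of the genes were tested, and Ogn, Fibin and Cdo1, chosen for their falls, were not. The 7 were also chosen with earlier results known, and the comparisons with lesions used the same non-transgenic arrays. Their p-values are therefore not free of that choice. The median over the 10 genes was -0.42, from 0.11 (Pdgfra) to -1.05 (Fibin), beside -0.09 over all transcript clusters, of which 6.89% were called lower and 1.34% higher. Of the 7, Tcf21 passed, at a log2 difference of -0.75 ± 0.21 (SE) and a limma adjusted p of 0.0436, and lay lower on all 4 unaltered arrays than on any of the 5 non-transgenic arrays. The log2 difference was -0.59 with no sex term and -0.45 with the sex of the Y-linked genes. The call was kept in 10 of 32 alternatives. With 1 of the 17 arrays left out it was kept without dysplasia replicate 3, non-transgenic replicate 1 or adenocarcinoma replicate 1 or 4 and lost without any of the others, with limma adjusted p-values from 0.00423 to 0.237. The limma adjusted p was 0.132 with the sex of the Y-linked genes, 0.220 without non-transgenic replicates 4 and 5 and 0.704 with age as a covariate. Inmt differed by -0.54 ± 0.20 (SE), with a limma adjusted p of 0.110, and Fgf10 by -0.39 ± 0.13 (SE), with a limma adjusted p of 0.0845. Neither passed, although for both every unaltered array lay below every non-transgenic array, as on 11.9% of all transcript clusters. Npnt (-0.07), Limch1 (-0.01), Pdgfra (0.11) and Mfap4 (-0.11) had limma adjusted p-values of 0.800, 0.987, 0.657 and 0.810, and the groups overlapped in each. Among the genes without a test, Ogn differed by -0.48 ± 0.25, Fibin by -1.05 ± 0.26 and Cdo1 by -0.45 ± 0.24 (SE).

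Further normalization of the deposited values moved the median of all transcript clusters in this comparison from -0.085 to 0.022 with quantile normalization, and the calls from 1600 lower and 312 higher to 347 lower and 533 higher. Without non-transgenic replicate 5 the calls were 232 lower and 150 higher, without unaltered replicate 2 they were 632 and 203, without unaltered replicate 4 they were 1056 and 210, and without adenocarcinoma replicate 2 they were 625 and 187. The median of the 10 genes was -0.29 with quantile normalization, and none of the 10 passed. In dysplasia minus unaltered lung the calls moved from 1201 lower and 3357 higher to 2239 lower and 2128 higher, and all 10 genes still passed. In adenocarcinoma minus non-transgenic lung they moved from 3556 lower and 2809 higher to 3055 lower and 3593 higher, again with all 10 passing.

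The promoters of Ogn, Inmt and Fgf10 are shown as examples of windows that held a match of CAGCTG or TGTTTAC. A window of Limch1 also held TGTTTAC and is not shown. The genes shown are not the 3 with the largest falls. The windows of Fibin and Tcf21, which fell further than Inmt, held no match. CAGCTG is an E-box motif of the form bound by TCF21, one of the 10; the forkhead motif TGTTTAC is bound by factors such as FOXF1, and TATAAA is the TATA box. RefSeq windows (GRCm38.p6) of 300 bases, from 250 before to 50 after the start, were at hand for 8 of the 10 genes, as 11 windows, and both strands were searched. The motifs, in capitals, were chosen with the expression results known.
Ogn, chr13:49607765-49608064, plus strand: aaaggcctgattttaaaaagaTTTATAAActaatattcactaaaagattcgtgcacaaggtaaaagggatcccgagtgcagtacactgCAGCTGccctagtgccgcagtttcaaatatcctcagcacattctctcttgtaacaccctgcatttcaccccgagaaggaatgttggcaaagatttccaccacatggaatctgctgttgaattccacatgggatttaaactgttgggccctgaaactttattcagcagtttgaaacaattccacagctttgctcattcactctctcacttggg
Inmt, chr6:55174941-55175240, minus strand: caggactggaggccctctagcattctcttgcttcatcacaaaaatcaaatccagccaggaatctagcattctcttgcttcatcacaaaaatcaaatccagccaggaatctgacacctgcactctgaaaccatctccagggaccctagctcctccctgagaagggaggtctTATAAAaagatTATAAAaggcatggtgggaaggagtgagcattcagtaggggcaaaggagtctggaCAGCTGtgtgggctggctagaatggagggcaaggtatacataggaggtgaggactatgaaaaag
Fgf10, chr13:118714449-118714748, plus strand: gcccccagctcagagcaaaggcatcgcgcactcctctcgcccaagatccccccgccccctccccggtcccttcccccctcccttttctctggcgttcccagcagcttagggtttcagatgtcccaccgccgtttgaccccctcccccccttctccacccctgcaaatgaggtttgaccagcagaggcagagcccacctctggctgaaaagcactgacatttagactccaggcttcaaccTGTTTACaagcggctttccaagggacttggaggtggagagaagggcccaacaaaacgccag

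In the Ogn window CAGCTG began at position -162 from the start, and 2 overlapping matches of TATAAA, on opposite strands, began at -229 and -227. The Inmt window held CAGCTG at -14 and TATAAA at -80 and -69. The Fgf10 window held TGTTTAC at -11. In all, CAGCTG was found in 2 of the 11 windows (Ogn and Inmt), against 16.3% of 32851 RefSeq windows. TGTTTAC was found in 2 windows (Fgf10 and Limch1), against 3.65% of all windows, and TATAAA in 3 (Ogn, Inmt and Limch1), against 13.6%. A match describes these letters and not a bound site.

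Partners of the 10 gene products were measured on the same arrays and were tested over all transcript clusters. Itga8, the alpha 8 chain of the nephronectin receptor and itself a gene of alveolar fibroblasts, fell in adenocarcinoma like its ligand. Its log2 values were 7.58, 7.10, 7.35 and 7.29 in adenocarcinoma, 10.35, 9.97, 9.39 and 10.31 in dysplasia, 11.08, 11.02, 10.91 and 11.06 in unaltered lung and 11.17, 11.31, 11.25, 11.18 and 11.13 in non-transgenic lung. The difference was -3.90 ± 0.17 (SE) for adenocarcinoma minus non-transgenic lung (limma adjusted p = 9.97e-10) and -1.02 ± 0.15 (SE) for dysplasia minus unaltered lung (limma adjusted p = 0.000315). Unaltered and non-transgenic lung did not overlap in Itga8, but their difference, -0.23 ± 0.19 (SE), did not pass.

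Fgfr2, the FGF10 receptor, went the other way from its ligand. Its log2 values were 10.94, 10.88, 10.91 and 10.92 in adenocarcinoma, 10.48, 10.48, 10.39 and 10.56 in dysplasia, 9.97, 9.78, 9.71 and 9.90 in unaltered lung and 9.84, 9.80, 9.77, 10.10 and 9.81 in non-transgenic lung. Fgfr2 rose by 1.06 ± 0.08 (SE) in adenocarcinoma over non-transgenic lung (limma adjusted p = 1.34e-07) and by 0.64 ± 0.07 (SE) in dysplasia over unaltered lung (limma adjusted p = 4.15e-05). Bmp4, a target of FGF10 signalling in the lung bud, rose by 1.15 ± 0.08 and 0.83 ± 0.07 (SE) in the same comparisons, with limma adjusted p-values of 8e-08 and 5.75e-06. Fgf7, another FGFR2 ligand made by mesenchyme, fell by 2.88 ± 0.19 and 0.73 ± 0.16 (SE), with limma adjusted p-values of 2.84e-08 and 0.00578. Of 12 measured FGF10 and hedgehog partners, 6 fell and 3 rose in adenocarcinoma against non-transgenic lung, and the median was -0.37; 2 fell and 3 rose in dysplasia against unaltered lung.

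Pdgfa, the PDGFRA ligand gene, fell by 1.01 ± 0.09 (SE) in adenocarcinoma against non-transgenic lung (limma adjusted p = 6.42e-07) and by 0.37 ± 0.08 (SE) in dysplasia against unaltered lung (limma adjusted p = 0.00416). The ligand genes Pdgfb and Pdgfd fell by 1.36 and 0.68 in adenocarcinoma against non-transgenic lung, so 3 of the 4 PDGF genes fell and 1, Pdgfc, named here after its value was seen, rose by 0.38 (limma adjusted p = 0.0175). Pdgfrb, the receptor gene of pericytes, differed by less, at -0.48 ± 0.15 (SE; limma adjusted p = 0.0298), and lost its call in 8 of 32 alternatives. Among these were leaving out adenocarcinoma replicate 1 or 2 or non-transgenic replicate 1, with limma adjusted p-values of 0.0588, 0.278 and 0.0551, and leaving out non-transgenic replicates 4 and 5, with 0.0658. Among 7 nephronectin and MFAP4 partners, 5 fell and 2 rose. Eln, the elastin gene, rose by 1.58 ± 0.13 in adenocarcinoma over non-transgenic lung and by 0.91 ± 0.11 (SE) in dysplasia over unaltered lung (limma adjusted p = 3.24e-07 and 0.000115), while Mfap4 was lower in both lesions. Itgb3 fell by 1.61 and 0.43 in these comparisons.

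**Figure D4:**
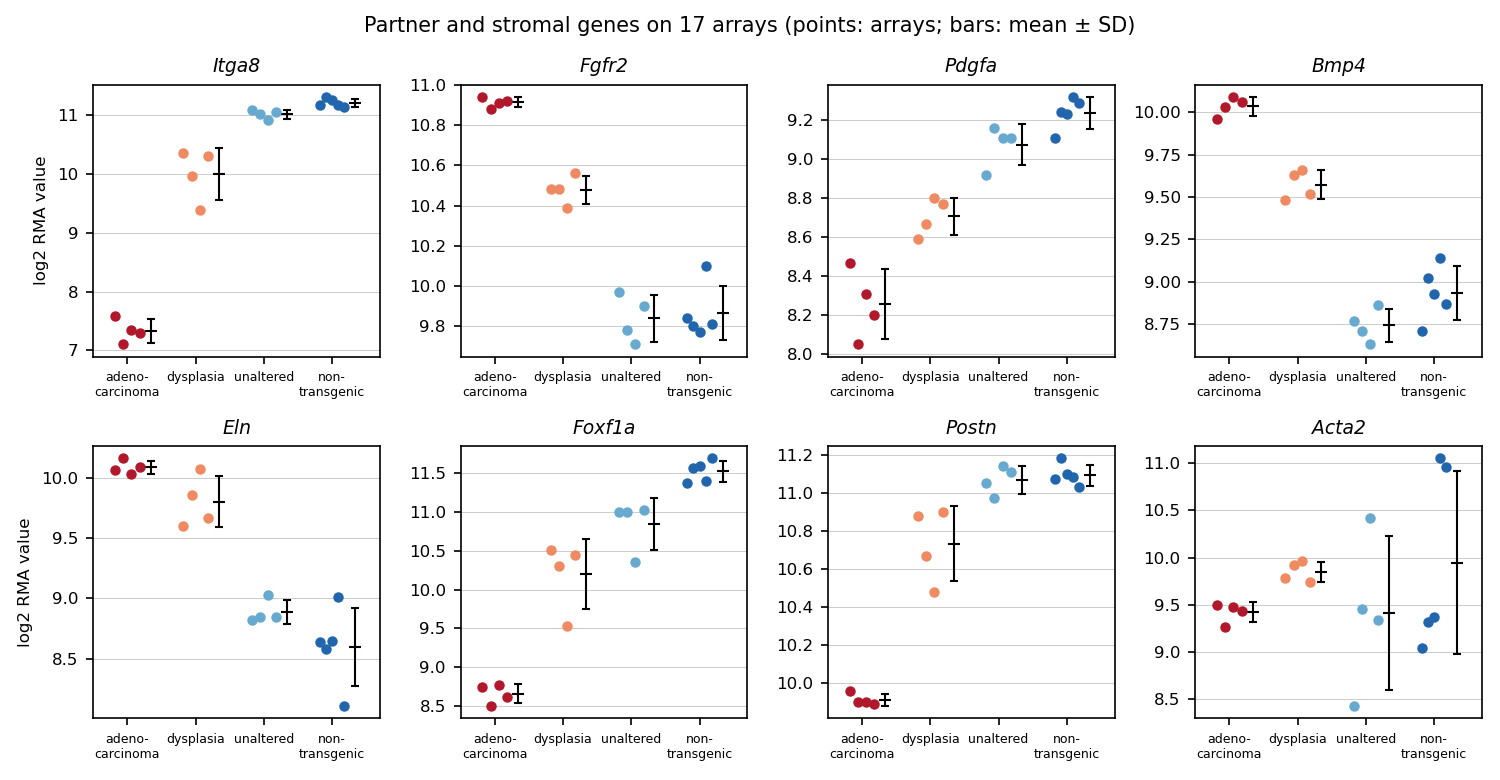
Log2 RMA values (vertical axis, a scale of its own in each panel) of 8 partner and stromal genes in adenocarcinoma, dysplasia, unaltered transgenic and non-transgenic lung; points are arrays and bars are mean ± SD. Itga8, Pdgfa, Foxf1a and Postn are lowest in adenocarcinoma, Fgfr2, Bmp4 and Eln are lowest outside the lesions, and Acta2 has no such order.

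Tcf12 and Tcf3 code for E proteins, the usual dimer partners of basic helix-loop-helix factors such as TCF21. Tcf12 fell by 0.37 ± 0.08 (SE) in adenocarcinoma against non-transgenic lung (limma adjusted p = 0.00203), and lost the call without adenocarcinoma replicate 2 (0.055) and among arrays labelled male (0.0807). Tcf3 differed by -0.14 ± 0.10 (SE; limma adjusted p = 0.350). In dysplasia minus unaltered lung they differed by -0.02 and -0.04 and did not pass. Of 13 mesenchymal transcription factor genes 9 fell and none rose in adenocarcinoma against non-transgenic lung, with a median of -1.34. With the sex of the Y-linked genes 10 fell and 1 rose. The forkhead gene Foxf1a fell by 2.90 ± 0.19 (SE; limma adjusted p = 2.35e-08), the T-box gene Tbx3 fell by 2.54 and Zeb1 fell by 2.12. In dysplasia against unaltered lung 5 of the 13 fell, with Tbx3 at -0.75, Zeb1 at -0.69 and Foxf1a at -0.64.

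Of the 21 other measured alveolar fibroblast genes, 20 fell in adenocarcinoma against non-transgenic lung and none rose, with a median of -1.98. Figf, which codes for the growth factor VEGF-D, fell by 3.88 ± 0.19 (SE) and Scube2 fell by 3.18 ± 0.14 (SE), with limma adjusted p-values of 2.08e-09 and 9.89e-10. Col13a1, a collagen gene used as a marker of these cells, fell less, by 0.73 ± 0.09 (SE; limma adjusted p = 1.92e-05). The exception, Enpep, named after its value was seen, differed by 0.05 ± 0.06 (SE; limma adjusted p = 0.618). In dysplasia against unaltered lung 18 of the 21 fell, with a median of -0.62, and 10 of the 21 fell with the animal as a fixed block. With that block 446 of all transcript clusters were called lower, against 1201 in the main fit. Figf fell by 1.01 and the ligand gene Wnt2 by 0.99 in this comparison. Against dysplasia, 18 of the 21 fell in adenocarcinoma, and 5 with age as a covariate. With that covariate 147 of all transcript clusters were called lower, against 1545 in the main fit. In unaltered against non-transgenic lung 1 of the 21 fell, with a median of -0.30 and between 0 and 4 over the alternatives.

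Fibroblast lists of other kinds were more mixed in adenocarcinoma against non-transgenic lung. Of 13 adventitial fibroblast genes 7 fell and 1 rose, with a median of -0.48. Igfbp6 fell by 2.73, the matrix gene Dpt fell by 2.39 and Clec3b fell by 1.43. Over the alternatives between 3 and 7 of the 13 fell, and the median ran from -0.65 to -0.26. Of 8 alveolar myofibroblast genes 4 fell and 3 rose, with a median of -0.52, and Hhip, an inhibitor of hedgehog ligands, fell by 2.62. Of 8 lipofibroblast genes, which serve lipid storage, 1 fell and 3 rose, with a median of 0.11: the leptin receptor gene Lepr fell by 2.39 and the lipid droplet gene Plin2 rose by 0.45.

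Tumour-type fibroblast and matrix genes did not share the direction of the 10 genes. Of 13, 2 fell and 5 rose, with a median of 0.09. Over the alternatives between 4 and 6 rose, and the median ran from 0.04 to 0.37. Postn, the periostin gene, had log2 values of 9.96, 9.90, 9.90 and 9.89 in adenocarcinoma, against 11.07, 11.18, 11.10, 11.08 and 11.03 in non-transgenic lung. It fell by 1.17 ± 0.09 (SE; limma adjusted p = 1.23e-07), whereas Timp1, a protease inhibitor gene, rose by 1.04 ± 0.21 (SE; limma adjusted p = 0.0015) and Thbs2 by 0.84 ± 0.13 (SE; limma adjusted p = 0.000124). Timp1 did not pass with age as a covariate, at 0.0791. The defining genes Fap (3.80 in adenocarcinoma and 3.85 in non-transgenic lung) and Lrrc15 (4.19 and 4.20), named after their values were seen, lay below the lower quartile of the arrays.

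Endothelial genes were lower on the same arrays as the 10 genes, while most alveolar type II and macrophage genes were higher. All 12 endothelial genes fell in adenocarcinoma against non-transgenic lung, with a median of -2.53, and their mean log2 value ran from 8.81 to 8.94 in adenocarcinoma and from 11.57 to 11.68 in non-transgenic lung. All 12 fell in dysplasia against unaltered lung too, with a median of -0.68. Of 12 pericyte genes 9 fell and 1 rose in adenocarcinoma against non-transgenic lung (median -0.90), of 9 smooth muscle genes 5 fell (median -1.14), of 7 mesothelial genes 6 fell (median -1.46) and of 8 alveolar type I genes 6 fell and 1 rose (median -1.02). Acta2, the smooth muscle actin gene, differed by -0.57 ± 0.46 (SE; limma adjusted p = 0.42), and stood at 11.05 and 10.96 on non-transgenic replicates 4 and 5 but at 9.04 to 9.37 on replicates 1 to 3. Of 10 alveolar type II genes 9 rose and none fell (median 0.96), and their mean log2 value ran from 12.95 to 12.97 in adenocarcinoma and from 11.87 to 12.10 in non-transgenic lung. Of 8 macrophage genes 5 rose and 1 fell (median 0.72). Of 8 T and B cell genes 5 fell, of 7 ciliated and club cell genes 2 fell, and of 6 cardiac muscle genes none passed. Several of these counts moved with the arrays used. Without non-transgenic replicates 4 and 5 the smooth muscle genes had 4 lower calls and a median of -0.57, the ciliated and club cell genes 0 and -0.43, and the T and B cell genes 3 and -0.45. On the same arrays the mesothelial genes had 5 lower calls and a median of -1.0, and the alveolar type I genes 5 and -0.94. Without non-transgenic replicates 1 to 3 the smooth muscle genes had 8 lower calls and the ciliated and club cell genes 7. With 1 array left out, the ciliated and club cell genes had 0 lower calls without non-transgenic 5 or adenocarcinoma 2, 1 without non-transgenic 2 or adenocarcinoma 3 or 4, 4 without unaltered 3 and 5 without non-transgenic 1, and the T and B cell genes had 3 without adenocarcinoma 2. Over all alternatives the lower calls ran from 4 to 8 for smooth muscle, 0 to 7 for ciliated and club cell and 2 to 6 for T and B cell genes. The mean of the 10 genes ran from 7.79 to 8.05 in adenocarcinoma, 9.52 to 10.32 in dysplasia, 10.69 to 10.84 in unaltered lung and 10.99 to 11.20 in non-transgenic lung. The part of these cell types in the falls of the 10 genes was not tested.

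**Figure D5:**
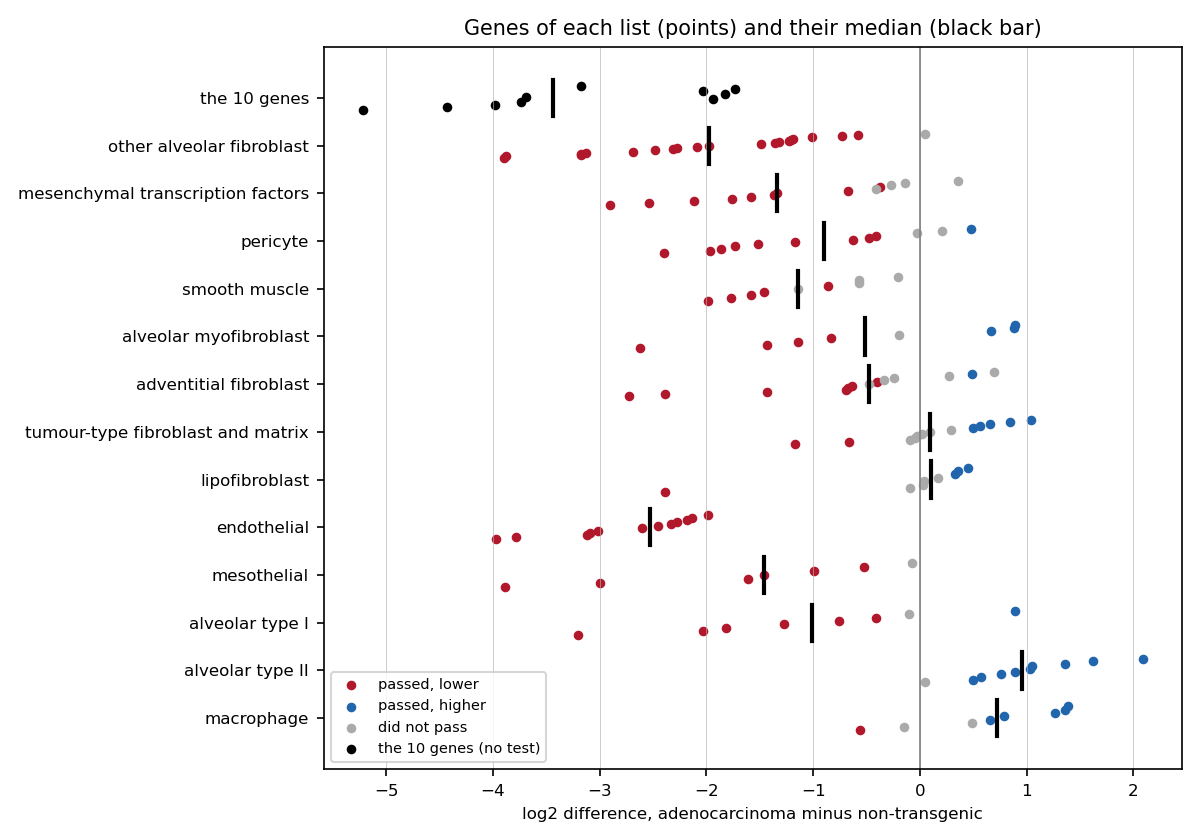
Log2 differences of adenocarcinoma minus non-transgenic lung (horizontal axis) for the 10 genes, shown without a test, and for the genes of 13 lists; each point is a gene and the black bar is the median of the list. The medians run from -3.44 for the 10 genes and -2.53 for endothelial genes to 0.72 for macrophage and 0.96 for alveolar type II genes.

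Across the 17 arrays the 10 genes followed each other, as genes chosen for one direction would: Pearson's r between any 2 of them lay between 0.92 and 0.99. Their deviations from the group means, which leave out the differences between groups, correlated between -0.34 and 0.87, with a median of 0.52. The 10 other genes with the values most like the mean of the set, by Pearson's r over the 17 arrays, were Kitl (0.999), Cav1, Gsn, Ednrb (0.998 each), Hpgd, Itga8, Fmo2, Thbd, Slc43a3 and Ptprb (0.997 each). Kitl, the gene of the KIT ligand, averaged 7.70 ± 0.11 in adenocarcinoma, 9.78 ± 0.38 in dysplasia, 10.53 ± 0.10 in unaltered lung and 10.79 ± 0.09 in non-transgenic lung (SD). Such values were common, since 503 of 14797 genes had r above 0.95 and 53 had r below -0.95. All arrays share the group structure, which enters these coefficients. In deviations from the group means, the 10 named genes still correlated with the set at 0.86 (Slc43a3) to 0.95 (Kitl). Of these genes, Itga8 is on the list of other alveolar fibroblast genes and Ednrb on the endothelial list. What links them to the set was not tested.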

How the data were processed

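The authors deposited 1 value per core transcript cluster and array, on the log2 scale after RMA in Expression Console, per the labels; GCOS is named in the submitters' processing notes, and versions and genome build are not given in the sources used here. Per the labels' protocols, RNA of cells cut by laser from haematoxylin-stained cryosections was amplified before hybridisation. Exon values were not analysed here.

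Symbols came from the platform annotation: 14939 of 23238 transcript clusters had 1 symbol, 989 several and 7310 none. One limma fit (version 3.58.1, R 4.3.3) of all 17 arrays had 4 groups, labelled sex and the animal as a random block (correlation 0.247), with Benjamini-Hochberg adjustment over all 23238 transcript clusters, no filter on low values and a threshold of 0.05. The test was checked on simulated data. P-values set each group difference against the spread between these arrays, and not every array is a separate animal. Dysplasia and unaltered lung were paired through their animal labels; same-label deviations correlated at 0.21, 0.08, 0.15 and -0.01, other combinations at -0.23 to 0.15.

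The 10 genes and 19 further lists (185 of 209 genes measured, 1 of them in 2 lists) were chosen with earlier results of these data known. Of each list the text names up to 3 called genes with the largest difference in adenocarcinoma minus non-transgenic lung and in dysplasia minus unaltered lung, and always Itga8, Fgfr2, Pdgfa, Col13a1, Pdgfrb, Acta2, Postn, Tcf12 and Tcf3. Alternatives changed the block, sex, age, normalization, weights, filter and arrays. Promoter windows are RefSeq's.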

Additional observations from a re-analysis of the deposited data

Results flagged for a closer look

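Of 48 sets of group values checked, 2 held 1 array far from the others by Dixon's criterion; chance gives about 1 in 20. Cdo1 on non-transgenic replicate 4 had a log2 value of 10.95, against 11.27 to 11.35 on the other non-transgenic arrays. The mean of the 21 other alveolar fibroblast genes was 7.65 on adenocarcinoma replicate 2, against 7.70 to 7.71 on the other adenocarcinoma arrays, a gap that is small beside the difference from every other group. Adenocarcinoma replicate 2 is one of the arrays whose Y-linked genes contradicted the labelled sex, and non-transgenic replicate 4 is one of the pair of arrays with high smooth muscle and airway genes. Their part in these values was not tested.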

How the results depend on the processing

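The median difference of the 10 genes kept its direction in all 6 comparisons under each alternative. With each array left out in turn it ran from -3.53 to -3.30 for adenocarcinoma minus non-transgenic lung, -3.07 to -2.98 for adenocarcinoma minus unaltered lung, -2.32 to -2.07 for adenocarcinoma minus dysplasia, -1.11 to -0.80 for dysplasia minus non-transgenic lung, -0.84 to -0.60 for dysplasia minus unaltered lung and -0.49 to -0.36 for unaltered minus non-transgenic lung. Age as a covariate moved the median of adenocarcinoma minus dysplasia to -2.54 and all transcript clusters called lower there from 1545 to 147. It moved the count of the 21 other alveolar fibroblast genes called lower there to 5. The fixed replicate block moved all transcript clusters called lower in dysplasia minus unaltered lung from 1201 to 446. It moved the count of the 21 there to 10 and changed no median. In unaltered minus non-transgenic lung, where the count was 1, it was 3 with no sex term and with only the 2 groups, 2 with trend and robust eBayes, 4 without non-transgenic replicates 1 to 3, and 0 with arrays labelled male, age, quantile normalization, cyclic loess, without arrays naming 2 animals and without non-transgenic replicates 4 and 5. With 1 array left out it ran from 0 (non-transgenic 5, unaltered 2 or adenocarcinoma 2) to 3 (dysplasia 3 or non-transgenic 1).

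Small differences in unaltered minus non-transgenic lung changed sign in genes that had not passed. Pdgfra became -0.11 with the sex of the Y-linked genes, 0.00 with array weights and -0.09 without non-transgenic replicates 4 and 5, and Mfap4 became 0.01, 0.02 and 0.05. Npnt became 0.03 with quantile normalization and 0.02 with cyclic loess, and Limch1 0.12 with both. Limch1 was also 0.01 with arrays labelled male, 0.03 without arrays naming 2 animals and 0.34 without non-transgenic replicates 1 to 3. With 1 array left out, Pdgfra ran from -0.06 to 0.23, Mfap4 from -0.27 to 0.03 and Limch1 from -0.21 to 0.18. Fibin moved most of the 10, to -0.60 with the sex of the Y-linked genes and -1.55 without non-transgenic replicates 1 to 3; the cause was not tested. Age overlaps little between groups, and 4 or 5 arrays a group limit the precision.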
